A study of Mus musculus with 32 samples.

Results

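The genes described here are 7 members of the interleukin-6 (IL-6) family in mouse bone marrow-derived macrophages (BMDMs): the cytokine genes Il6, Lif, Osm and Clcf1 and the receptor genes Il6ra, Il6st and Osmr. They were chosen by name, and each was followed through its transcript with the highest mean count, 7 of the 25067 genes in the count table. The 32 RNA-seq libraries came from macrophages grown for 7 days in L929-conditioned medium from the marrow of male C57Bl6/J mice aged 6 to 12 weeks. BMDM-WT carried the wild-type alleles, and BMDM-Nur77-KO came from mice that lack the nuclear receptor Nur77 (gene Nr4a1) in every tissue; the labels give that genotype as cre. The deletion was made by crossing mice with a loxP-flanked Nr4a1 locus to mice expressing Cre from the CMV promoter, Cre was then bred out, and the wild-type animals were littermates. Each genotype was sampled before LPS, the bacterial cell wall component that activates Toll-like receptor 4, and after 1, 5 and 18 h with 100 ng/ml LPS, with 4 libraries in each of the 8 groups. How many animals stand behind the 4 libraries of a group is not given, so the p-values below measure the spread between these libraries, which may be technical.

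The cytokines described here all signal through gp130, the protein encoded by Il6st, which activates JAK kinases and above all the transcription factor STAT3. The partner of gp130 decides which cytokine a cell can sense: the IL-6 receptor encoded by Il6ra binds IL-6, the oncostatin M receptor encoded by Osmr binds OSM, and the LIF receptor binds LIF and, with a further subunit, CLCF1. IL-6 receptor that is shed from the cell surface can still carry IL-6 to cells that have gp130 alone, so macrophages are known both as a source of the cytokine and as a source of its soluble receptor. STAT3 in turn raises SOCS3, which blocks signalling at gp130.

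Counts over the genes summed to between 8742362 and 15780926 per library. Levels are normalised read counts in CPM, scaled to the TMM-adjusted total of each library. Of the 7 genes, 6 reached a mean above 1 RPKM (CPM per kilobase of transcript) in at least 1 group and were among the 11279 genes tested with edgeR; Osmr did not, and its tests come from a fit with a looser filter on 12215 genes. A gene is said to have passed, risen or fallen where its Benjamini-Hochberg adjusted p was under 0.05. Nr4a1 itself stood at 358 to 485 CPM in BMDM-WT and at 146 to 243 CPM in BMDM-Nur77-KO at 1 h, so message from the locus was lower in the knockout but still present, and counts over the whole transcript do not test the deleted part. All 6 macrophage markers were detected, while the 5 fibroblast markers summed to at most 1.88 CPM. Among the macrophage markers Lyz2 had a median of 8685 CPM over all libraries, against 230 to 1490 CPM for the others. It therefore weighs most in their sum, and the single markers are not given by group here. The macrophage markers summed to 12240 to 18160 CPM in all groups but BMDM-Nur77-KO at 18 h, where the sum was 9634 to 10950 CPM, below the 12240 to 12730 CPM of BMDM-WT at that time; the part of this in the genotype differences at 18 h was not tested. Library 1 of BMDM-Nur77-KO at 5 h stood apart: its mean correlation with the rest of its group was 0.965, against at least 0.979 in every other library, and fitted differences of BMDM-Nur77-KO at 5 h are given with and without it.

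**Figure D1:**
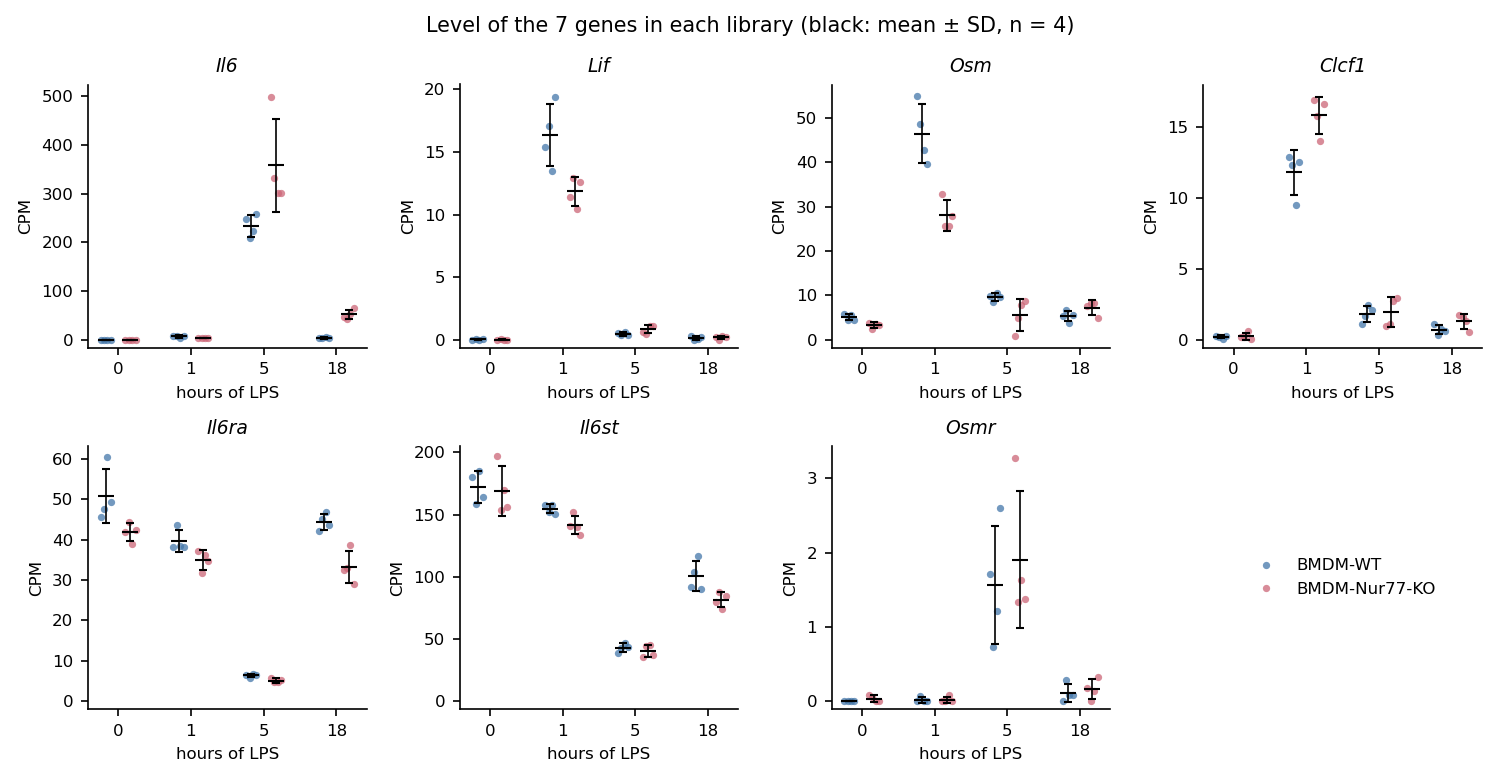
Level of each gene in CPM on the vertical axis (each panel has its own linear scale from 0) against hours of LPS, for BMDM-WT and BMDM-Nur77-KO; coloured points are single libraries, and black marks are the mean ± SD of 4. Lif, Osm and Clcf1 are highest at 1 h, Il6 and Osmr at 5 h, and Il6ra and Il6st are lowest at 5 h in both genotypes.

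The cytokine genes rose in 2 waves after LPS, and the receptor genes for IL-6 moved the other way. In BMDM-WT, Lif, Osm and Clcf1 were highest at 1 h and had fallen again by 5 h, whereas Il6 was highest at 5 h. Il6ra and Il6st both had their lowest level at 5 h. The same groups held the highest and the lowest level of these 6 genes in BMDM-Nur77-KO. In bulk libraries such as these, fewer cells expressing a gene and less RNA per cell cannot be told apart.

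Il6, the cytokine that gives the family its name, had no count in any of the 8 libraries before LPS. At 1 h it stood at 8.95, 8.80, 3.95 and 7.09 CPM in the 4 BMDM-WT libraries and at 3.93, 3.08, 4.31 and 4.36 CPM in BMDM-Nur77-KO. Against a floor of 3 counts per library before LPS, Il6 at 1 h was at least 34.7-fold higher in BMDM-WT, and in BMDM-Nur77-KO at least 16.8-fold higher. The genotypes overlapped at 1 h only through 1 BMDM-WT library, the third, which lay among the knockout values. The log2 fold change of BMDM-Nur77-KO against BMDM-WT was −0.87 ± 0.26 (SE; adjusted p = 0.041). This call did not hold without any 1 of 7 of the 8 libraries at 1 h (adjusted p = 0.066 to 0.15), and without the third BMDM-WT library the log2 fold change was −1.09 (adjusted p = 0.0048).

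At 5 h the order of the genotypes was the opposite. Il6 reached 248, 208, 223 and 258 CPM in BMDM-WT and 499, 332, 301 and 301 CPM in BMDM-Nur77-KO. Every knockout library lay above every wild-type library, and the highest value belonged to the library that stood apart. The log2 fold change was 0.61 ± 0.18 (SE; adjusted p = 0.019). Without that library the knockout mean was 312 ± 18.0 CPM (SD, n = 3), still above the highest wild-type library, but the log2 fold change was 0.41 and did not pass (adjusted p = 0.087), nor did it without the second BMDM-WT library (0.56, adjusted p = 0.061). Against the floor before LPS, Il6 at 5 h was at least 1130-fold higher in the wild type and in the knockout at least 1539-fold higher.

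Between 5 and 18 h Il6 fell in both genotypes, and far less in the knockout. At 18 h it stood at 3.75, 3.24, 6.27 and 3.19 CPM in BMDM-WT, and at 47.7, 43.3, 53.4 and 64.8 CPM in BMDM-Nur77-KO. These are 1.76% of the mean at 5 h in BMDM-WT and 14.6% in BMDM-Nur77-KO. The BMDM-WT libraries lay within the range of the 8 libraries at 1 h, 3 of the 4 below the lowest BMDM-WT library at that time, while those of BMDM-Nur77-KO lay above every library at 1 h and below every library at 5 h. The change from 5 to 18 h was −5.82 ± 0.25 on the log2 scale in BMDM-WT (SE; adjusted p = 1.8e-16) and −2.78 ± 0.20 in BMDM-Nur77-KO (adjusted p = 5.8e-12; −2.57 without the library that stood apart, adjusted p = 4.2e-13). The 2 changes differed by 3.05 ± 0.30 (SE; adjusted p = 1.1e-07), and by 3.25 without the library that stood apart (adjusted p = 2.6e-09). By its log2 fold change between the genotypes at 18 h, Il6 ranked 12 of the 11279 genes, where the highest value ranks first.

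**Figure D2:**
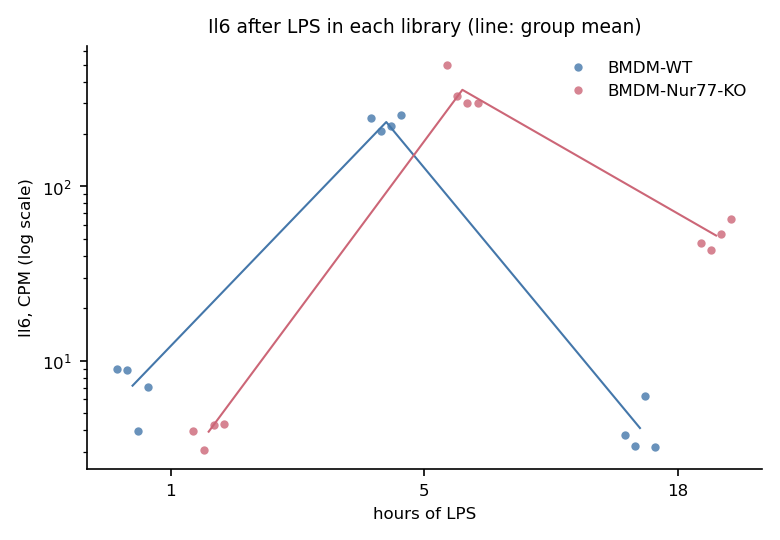
Il6 in CPM on a log axis at 1, 5 and 18 h of LPS, spaced evenly; points are single libraries and lines join the group means. The BMDM-WT and BMDM-Nur77-KO libraries overlap at 1 h, are separate at 5 h, and lie at 3.19 to 6.27 and 43.3 to 64.8 CPM at 18 h.

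Lif encodes leukaemia inhibitory factor, known for holding mouse embryonic stem cells undifferentiated. It had at most 2 counts in any library before LPS. At 1 h it reached 15.4, 17.0, 13.5 and 19.4 CPM in BMDM-WT and 11.4, 12.9, 10.5 and 12.6 CPM in BMDM-Nur77-KO. The lowest wild-type library lay above the highest knockout library, but the log2 fold change of −0.46 ± 0.17 did not pass (adjusted p = 0.12). Against the floor, Lif at 1 h was at least 78.8-fold higher in the wild type and in the knockout at least 50.9-fold higher. By 5 h it had 3 to 6 counts in BMDM-WT and 6 to 12 counts in BMDM-Nur77-KO, so its genotype difference there, 0.76 ± 0.43 on the log2 scale, rests on few reads and did not pass (adjusted p = 0.19; 0.84 without the library that stood apart, adjusted p = 0.24). At 18 h no library had more than 4 counts.

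Lif, of the early wave, and Il6, of the late one, both started from the floor, and their promoter windows in RefSeq (GRCm38.p6) are shown for the binding letters they hold. The table of windows, which run from 250 bases before the start site to 50 after it, had entries for 5 of the 7 genes. Only the 250 bases before the start are printed, 5′ to 3′ on the strand of the gene. Capitals mark TGANTCA, the AP-1 pattern searched for, with any base in the middle, in both windows. They also mark GGANTTTCC, a form of the NF-kB letters, in that of Il6. The window of Il6 is chr5:30012864-30013113 and that of Lif is chr11:4257318-4257567, both on the plus strand.
Il6: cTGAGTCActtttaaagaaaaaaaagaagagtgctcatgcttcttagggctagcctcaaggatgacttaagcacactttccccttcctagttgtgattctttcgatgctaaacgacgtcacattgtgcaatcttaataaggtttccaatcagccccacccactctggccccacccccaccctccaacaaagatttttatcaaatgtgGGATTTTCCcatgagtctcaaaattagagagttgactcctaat
Lif: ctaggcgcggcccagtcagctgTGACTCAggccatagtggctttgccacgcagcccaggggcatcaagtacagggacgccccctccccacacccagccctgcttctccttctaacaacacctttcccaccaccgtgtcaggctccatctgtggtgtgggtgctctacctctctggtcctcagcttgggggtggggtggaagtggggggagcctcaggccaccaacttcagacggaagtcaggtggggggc
On both strands of the whole window, TGANTCA was found in Il6, Lif and Osmr, and in 7.81% of all 32851 promoter windows. The match was TGAGTCA in Il6, TGACTCA in Lif and TGATTCA in Osmr, where it lies after the start site. The bases before that start site, chr15:6874314-6874563 on the minus strand, lie inside the Osmr gene as annotated (6813568 to 6874968). The letters GGANTTTCC were found in Il6 alone of the 5 and in 1.25% of all windows. The letters AAAGGTCA, to which Nur77 binds as a monomer, were in none of the 5 windows and in 1.51% of all; TTCNNNGAA, read by STAT factors, was in none of the 5 and in 8.30% of all. The letters TGACGTCA, the full form of the cAMP response element, were in 1.79% of all windows, and TATAAA was in 13.6%. Neither was in the 5 windows. Only exact matches were counted, and the window of Il6 does hold gacgtca, the same letters without the first. A match of letters is a description of the window and was not tested for binding.

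Osm encodes oncostatin M, a cytokine made largely by myeloid cells. It already had 40 to 88 counts per library before LPS, at 5.88, 4.57, 5.60 and 4.57 CPM in BMDM-WT and at 3.92, 2.53, 3.68 and 3.42 CPM in BMDM-Nur77-KO. At 1 h it stood at 54.8, 48.6, 42.8 and 39.6 CPM in BMDM-WT and at 32.9, 25.6, 25.7 and 27.9 CPM in BMDM-Nur77-KO. At both times every knockout library lay below every wild-type library. The log2 fold change was −0.61 ± 0.30 before LPS (SE; adjusted p = 0.19) and −0.73 ± 0.23 at 1 h, which passed (adjusted p = 0.048) but did not without any 1 of the 8 libraries at 1 h (adjusted p = 0.055 to 0.16). The rise of Osm by 1 h was 3.18 ± 0.26 in BMDM-WT and 3.06 ± 0.28 in BMDM-Nur77-KO on the log2 scale, and the difference of the 2 rises was −0.12 ± 0.38 (SE; adjusted p = 0.90).

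Later the order of the genotypes for Osm was no longer clear. At 5 h BMDM-WT stood at 9.79, 8.45, 10.7 and 9.58 CPM and BMDM-Nur77-KO at 0.873, 4.87, 7.86 and 8.84 CPM. The lowest of these, from 8 counts, is the library that stood apart, and the log2 fold change of −0.76 ± 0.29 (adjusted p = 0.052) was −0.43 without it (adjusted p = 0.16). At 18 h Osm stood at 5.40, 6.67, 3.74 and 5.70 CPM in BMDM-WT and 7.70, 8.20, 8.34 and 4.91 CPM in BMDM-Nur77-KO, where the groups overlapped (0.44 ± 0.29 on the log2 scale, adjusted p = 0.29). From 5 to 18 h Osm fell by 0.84 ± 0.29 on the log2 scale in BMDM-WT (SE; adjusted p = 0.011), while the change in BMDM-Nur77-KO was 0.36 ± 0.29 (adjusted p = 0.26; 0.03 without the library that stood apart, adjusted p = 0.89). The difference of the 2 changes was 1.21 ± 0.41 (SE; adjusted p = 0.045). It was 0.88 without the library that stood apart (adjusted p = 0.026), and the call was lost (adjusted p = 0.052 to 0.097) without any 1 of the BMDM-WT libraries at 5 h, libraries 1, 3 or 4 of BMDM-WT at 18 h, libraries 1, 2 or 3 of BMDM-Nur77-KO at 18 h, or library 2 of BMDM-Nur77-KO at 5 h.

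Clcf1 encodes cardiotrophin-like cytokine factor 1, a ligand of the ciliary neurotrophic factor receptor. It had 1 to 8 counts per library before LPS. At 1 h it reached 12.9, 12.3, 9.50 and 12.5 CPM in BMDM-WT and 16.9, 15.8, 14.0 and 16.7 CPM in BMDM-Nur77-KO. It was the cytokine gene of the early wave whose knockout libraries all lay above the wild-type ones, but its log2 fold change of 0.43 ± 0.21 did not pass (adjusted p = 0.29). The rise by 1 h was 5.69 ± 0.35 in BMDM-WT and 5.84 ± 0.35 in BMDM-Nur77-KO on the log2 scale (SE; adjusted p = 3.5e-14 and 1e-14). At 18 h it stood at 0.381 to 1.10 CPM in BMDM-WT and at 0.573 to 1.79 CPM in BMDM-Nur77-KO, with a log2 fold change of 0.86 ± 0.41 (adjusted p = 0.14). Exons of Clcf1 on chromosome 19 (4214238 to 4223505, plus strand) overlap those of AC109138.7 on the same strand, so reads of the 2 cannot be fully told apart.

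Il6ra encodes the receptor chain that binds IL-6. Before LPS it stood at 45.6, 47.7, 60.3 and 49.3 CPM in BMDM-WT and at 41.9, 44.2, 38.9 and 42.5 CPM in BMDM-Nur77-KO. Every knockout library was the lower, with a log2 fold change of −0.28 ± 0.09 (SE; adjusted p = 0.031). Without the third BMDM-WT library the value was −0.18 and did not pass (adjusted p = 0.19), and 3 other libraries of the 8 also ended the call when left out (adjusted p = 0.051 to 0.12). At 1 h Il6ra stood at 38.2 to 43.6 CPM in BMDM-WT and at 31.7 to 37.2 CPM in BMDM-Nur77-KO, again without overlap, but the log2 fold change of −0.18 ± 0.09 did not pass (adjusted p = 0.28). By 5 h it had fallen to 6.60, 5.88, 6.66 and 6.62 CPM in BMDM-WT and to 5.89, 4.78, 4.79 and 5.21 CPM in BMDM-Nur77-KO. This is a change of −2.97 ± 0.10 in BMDM-WT and −3.02 ± 0.10 in BMDM-Nur77-KO on the log2 scale (SE; adjusted p = 1.8e-21 and 1.6e-21), and the difference of the 2 was −0.05 ± 0.15 (adjusted p = 0.92). Without the library that stood apart the change in BMDM-Nur77-KO was −3.09 (adjusted p = 6.9e-21) and the difference −0.11 (adjusted p = 0.81). Between the genotypes at 5 h the log2 fold change of Il6ra was −0.32 ± 0.12 with all libraries (adjusted p = 0.062) and −0.39 without that library (adjusted p = 0.060).

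At 18 h Il6ra had recovered to 42.2, 45.0, 46.8 and 43.6 CPM in BMDM-WT and to 32.4, 32.9, 38.7 and 29.0 CPM in BMDM-Nur77-KO. All 4 knockout libraries lay below all 4 wild-type libraries, as they did for the summed macrophage markers, in which Lyz2 weighs most. The log2 fold change of −0.42 ± 0.09 (SE; adjusted p = 0.00062) kept its sign and its call without any 1 of the 8 libraries (−0.50 to −0.35, adjusted p = 0.00011 to 0.0046). At that hour the knockout was lower for the receptor and higher for its cytokine. Against 0 h, the log2 fold change of Il6ra in BMDM-WT at 18 h was −0.19 ± 0.09 (adjusted p = 0.05, just under the threshold, and 0.12 with DESeq2). In BMDM-Nur77-KO it was −0.33 ± 0.09 (adjusted p = 0.0012), and the difference of the 2 responses, −0.14 ± 0.12, did not pass (adjusted p = 0.59). Il6ra lies on the minus strand of chromosome 3 (89869324 to 89913196), and its exons overlap Gm42809 on the plus strand; whether the counting used strand is not stated.

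Il6st encodes gp130, the shared signalling chain, which most cell types make. Before LPS it stood at 180, 159, 185 and 164 CPM in BMDM-WT and at 197, 154, 170 and 156 CPM in BMDM-Nur77-KO, and the groups overlapped (−0.03 ± 0.09 on the log2 scale, adjusted p = 0.87). At 5 h it stood at 38.7 to 47.3 CPM in BMDM-WT and at 35.5 to 45.3 CPM in BMDM-Nur77-KO. It fell by 1.99 ± 0.10 on the log2 scale in BMDM-WT and by 2.06 ± 0.10 in BMDM-Nur77-KO (SE; adjusted p = 6.6e-18 and 3.1e-18), and the fall in BMDM-Nur77-KO passed without the library that stood apart too (adjusted p = 1.2e-17). Its recovery by 18 h was partial in both genotypes, to 92.1, 104, 117 and 90.2 CPM in BMDM-WT and to 80.2, 87.9, 74.2 and 84.5 CPM in BMDM-Nur77-KO. The knockout libraries were all the lower, with a log2 fold change of −0.30 ± 0.09 (SE; adjusted p = 0.016), and the call was lost without the third BMDM-WT library (−0.22, adjusted p = 0.080) or the third BMDM-Nur77-KO library (−0.26, adjusted p = 0.067).

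Osmr, the receptor chain for oncostatin M, is known mainly from fibroblasts, hepatocytes and endothelial cells. It had 0 or 1 count per library before LPS and at 1 h. At 5 h it reached 15, 6, 11 and 22 counts in BMDM-WT and 30, 16, 17 and 14 counts in BMDM-Nur77-KO, and by 18 h no library had more than 4. Against the floor the level at 5 h was at least 7.56-fold higher in the wild type and in the knockout at least 8.18-fold higher (adjusted p = 3.7e-08 and 6.6e-08 in the looser fit). The genotypes overlapped at 5 h, with a log2 fold change of 0.24 ± 0.37 (adjusted p = 0.66). The highest count belonged to the library that stood apart, and without it the value turned to −0.12 (adjusted p = 0.88), with means of 1.45 CPM in BMDM-Nur77-KO and 1.57 CPM in BMDM-WT. The rise of Osmr by 5 h in BMDM-Nur77-KO passed without that library too (adjusted p = 2.4e-07). The sum of the 3 endothelial markers was also higher at 5 h than before LPS. It was 0.569 to 2.03 CPM before LPS, 17.4 to 21.1 CPM in BMDM-WT and 7.17 to 9.68 CPM in BMDM-Nur77-KO at 5 h. At 18 h the sum was 18.0 to 28.3 CPM over both genotypes. Osmr had at most 4 counts in any library at 18 h. Most of the sum was Kdr, at up to 27.2 CPM, with Cdh5 at up to 3.99 CPM and Tek at no more than 0.0891 CPM. Their part in the level of Osmr was not tested.

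**Figure D3:**
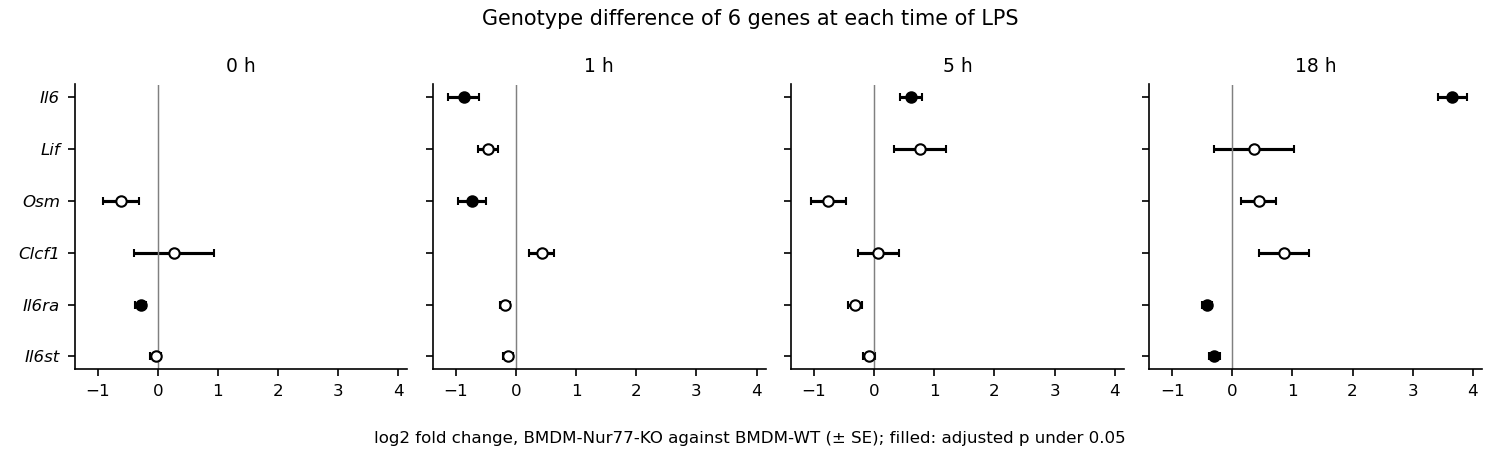
log2 fold change of BMDM-Nur77-KO against BMDM-WT on the horizontal axis for the 6 tested genes at 0, 1, 5 and 18 h of LPS; bars are ± SE, and filled points passed at an adjusted p under 0.05. Il6 and Lif are not drawn at 0 h, where no library had more than 2 counts; Il6 lies at −0.87, 0.61 and 3.66 at the 3 later times.

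Per transcript length the order of the genes changed with time. Before LPS the receptors led in BMDM-WT, Il6st at 19.8 ± 1.47 RPKM and Il6ra at 15.2 ± 1.97 RPKM (mean ± SD, n = 4), with Osm next at 2.27 ± 0.301 RPKM. At 1 h Osm led in BMDM-WT at 20.4 ± 2.94 RPKM, ahead of Il6st at 17.8 ± 0.425 RPKM, while in BMDM-Nur77-KO Il6st led at 16.3 ± 0.862 RPKM, ahead of Osm at 12.3 ± 1.52 RPKM. At 5 h Il6 led in both genotypes, at 205 ± 20.0 RPKM in BMDM-WT and 314 ± 83.2 RPKM in BMDM-Nur77-KO (273 ± 15.7 RPKM over the 3 libraries without the one that stood apart), while no other gene of the 7 exceeded a mean of 4.98 RPKM. By 18 h the receptors led again in BMDM-WT, Il6ra at 13.3 ± 0.589 RPKM and Il6st at 11.6 ± 1.41 RPKM, with Il6 at 3.61 ± 1.28 RPKM. In BMDM-Nur77-KO Il6 still led at 18 h, at 45.8 ± 8.16 RPKM, ahead of Il6ra at 9.95 ± 1.21 RPKM and Il6st at 9.41 ± 0.681 RPKM. The place of Il6ra depends on the length taken for it: its counts were nearly equal on a transcript of 3343 bases, used here, and on one of 8639 bases.

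**Figure D4:**
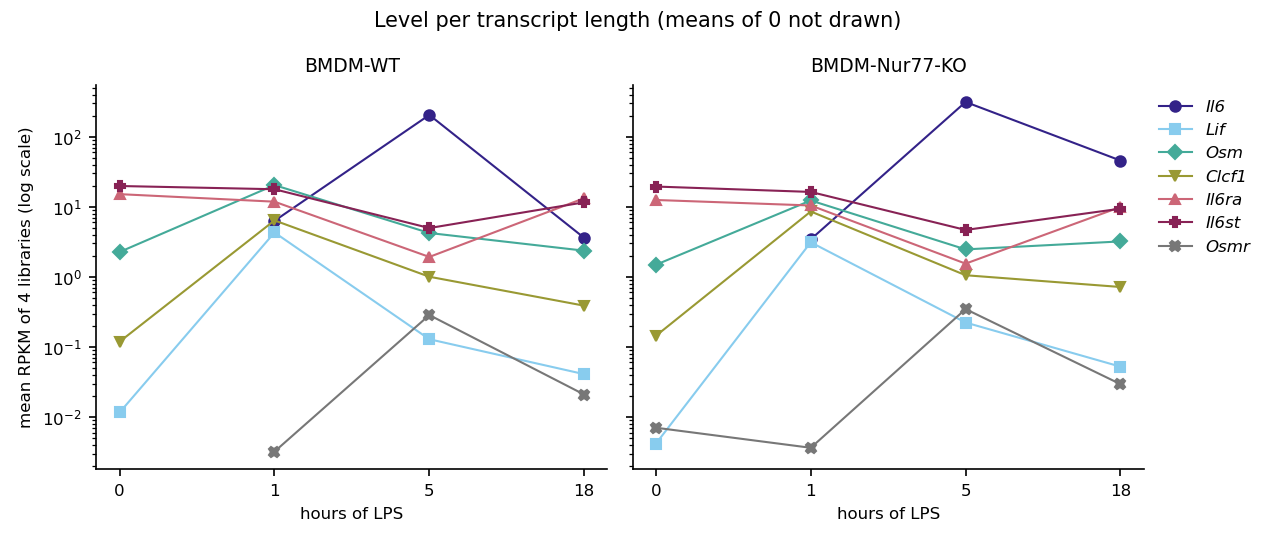
Mean RPKM of 4 libraries on a log axis against hours of LPS, spaced evenly, in BMDM-WT and BMDM-Nur77-KO; each line is 1 gene, and means of 0 are not drawn. Il6 is the highest line at 5 h in both genotypes, and at 18 h it is above the receptor lines in BMDM-Nur77-KO (45.8 RPKM) and below them in BMDM-WT (3.61 RPKM).

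Within each gene, neighbouring groups often overlapped. For Il6 the order of mean CPM was BMDM-Nur77-KO and then BMDM-WT at 5 h, and BMDM-Nur77-KO at 18 h, each separate from the next. The groups below these, BMDM-WT at 1 h, BMDM-WT at 18 h and BMDM-Nur77-KO at 1 h, overlapped their neighbours. For Lif, Osm and Clcf1 the 2 groups at 1 h came first and were separate from each other and from the rest. For Il6ra both groups at 5 h came last and overlapped. For Il6st the 4 groups at 0 and 1 h overlapped their neighbours in the order, and below them BMDM-WT at 18 h, BMDM-Nur77-KO at 18 h and the pair at 5 h were separate from each other.

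The number of genes that passed is set beside the share of all tested genes that did. Between the genotypes 1 of the 6 tested genes passed before LPS, where 12.7% of all genes did, and 2 of 6 at 1 h against 6.51%. At 5 h it was 1 of 6 against 24.2%; without the library that stood apart it was 0 of 6 against 13.3% (edgeR; 3 of 6 at an unadjusted p under 0.05, and 2 of 6 with DESeq2 on all libraries). At 18 h it was 3 of 6 against 21.5%. In the response to LPS in BMDM-WT 5 of 6 passed at 1 h (20.3% of all genes), 6 of 6 at 5 h (70.0%) and 4 of 6 at 18 h (66.3%). In BMDM-Nur77-KO these were 5 of 6 (12.2%), 6 of 6 (71.2%) and 6 of 6 (69.2%). From 1 to 5 h 6 of 6 passed in BMDM-WT (64.8%) and in BMDM-Nur77-KO (70.7%), and from 5 to 18 h it was 6 of 6 (69.1%) and 4 of 6 (68.8%), where Osm and Clcf1 did not pass in the knockout. Some of these calls were lost when 1 library was left out. For Il6ra in BMDM-WT at 18 h these were libraries 3 and 4 at 0 h and 1, 2 and 4 at 18 h (adjusted p = 0.059 to 0.31), and for Il6ra in BMDM-Nur77-KO at 1 h libraries 1, 2 and 4 at 0 h and 2, 3 and 4 at 1 h (adjusted p = 0.063 to 0.18). For Osm in BMDM-Nur77-KO at 5 h they were library 2 at 0 h and libraries 3 and 4 at 5 h (adjusted p = 0.10 to 0.20), and for Lif from 5 to 18 h in BMDM-WT library 3 at 5 h and libraries 2 and 3 at 18 h (adjusted p = 0.055 to 0.067). The responses against 0 h did not differ between the genotypes past the threshold in any of the 6 at 1 h (0.0709% of all genes), 5 h (3.10%) or 18 h (9.40%); for Il6 this contrast has no value, since both groups were at 0 before LPS. At an unadjusted p under 0.05 these counts were 0, 0 and 2, and with DESeq2 they were 0 at all 3 times. For counts at an unadjusted p or with DESeq2, shares of all genes are not given here. The change from 5 to 18 h differed for 2 of 6, Il6 and Osm, against 13.5%.

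The pathway around the 7 genes was followed through 33 further genes in 7 lists, of which 27 were tested. Of the 27, 22 rose and 2 fell at 5 h in BMDM-WT, where 30.0% of all tested genes rose and 40.1% fell, and 23 rose and 3 fell in BMDM-Nur77-KO, where 32.2% of all rose and 39.1% fell. Between the genotypes 1 was higher and 5 were lower in the knockout before LPS, when 6.29% of all genes were higher and 6.38% lower. At 1 h 2 were higher and none lower, against 3.47% and 3.04% of all genes. At 5 h 1 was higher and 8 were lower, against 13.5% and 10.6%, and at 18 h 9 were higher and none lower, against 11.7% and 9.80%. At an unadjusted p under 0.05, 3 were lower at 1 h and 2 at 18 h, and DESeq2 called 0 lower at either time. Shares of all genes under these settings are not given here. The median log2 fold change of the 27 was −0.12, −0.06, −0.07 and 0.17 at these times, against −0.029, −0.001, 0.019 and −0.011 over all genes tested. Without the library that stood apart, 1 was higher and 7 were lower at 5 h. Of all 11279 genes, 808 were higher and 687 lower in that fit, 13.3% in all. The higher one of the 27 was then Pias3 (0.40, adjusted p = 0.028) in place of Timp1.

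Among the other ligands Il27 and Ebi3, the subunits of IL-27, were the 2 of 6 that could be tested. Il27 stood at 11.3 to 15.5 CPM in BMDM-WT and at 17.0 to 30.0 CPM in BMDM-Nur77-KO at 18 h (0.91 ± 0.22 on the log2 scale, adjusted p = 0.0025). Ebi3 was lower in the knockout before LPS (−0.51 ± 0.17, adjusted p = 0.043) and at 5 h (−0.65 ± 0.16, adjusted p = 0.0038). Without the library that stood apart its value at 5 h was −0.47 (adjusted p = 0.013). Il11, Cntf, Ctf1 and Il31 did not pass the filter, with at most 8 counts in any library. Of the other receptors, Lifr, which LIF needs, fell after LPS in both genotypes. In BMDM-WT it stood at 6.89 to 9.00 CPM before LPS and 0.286 to 1.04 CPM at 18 h (−3.94 ± 0.27, adjusted p = 7.7e-14). In BMDM-Nur77-KO these were 5.98 to 8.21 and 0.164 to 0.538 CPM (−4.16 ± 0.29, adjusted p = 5.3e-14). Il11ra1, the IL-11 receptor chain, was higher in the knockout at 1 h (0.60 ± 0.17, adjusted p = 0.025), and Cntfr and Il31ra were not tested, with at most 5 counts.

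In the signalling list 3 of 5 genes were higher in the knockout at 18 h (11.7% of all genes), whereas at 5 h 2 of 5 were lower (10.6%). The lower ones at 5 h were Stat3, the transcription factor downstream of gp130 (−0.28 ± 0.08, adjusted p = 0.017; −0.19 without the library that stood apart, adjusted p = 0.097), and the JAK kinase gene Tyk2 (−0.56 ± 0.16, adjusted p = 0.012; −0.36 without it, adjusted p = 0.046). At 18 h Stat3 stood at 277 to 315 CPM in BMDM-WT and at 420 to 503 CPM in BMDM-Nur77-KO (0.68 ± 0.08, adjusted p = 2.4e-07), and Jak2 at 390 to 512 and 672 to 960 CPM (0.85 ± 0.13, adjusted p = 8.9e-06). Both had been induced by LPS in the 2 genotypes, Stat3 to a mean of 630 ± 28.6 CPM in BMDM-WT at 5 h. Jak1 was the other, at 0.29 ± 0.09 (adjusted p = 0.018), where the libraries overlapped (404 to 540 CPM in BMDM-WT and 488 to 633 CPM in BMDM-Nur77-KO).

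The inhibitors did not move as one. Socs3, the feedback inhibitor at gp130, was lower in the knockout before LPS at 0.363 ± 0.161 against 1.11 ± 0.386 CPM (SD, n = 4; −1.54 ± 0.46 on the log2 scale, adjusted p = 0.024), a level of few counts. At 5 h it stood at 995 to 1028 CPM in BMDM-WT and 371 to 852 CPM in BMDM-Nur77-KO (−0.56 ± 0.16, adjusted p = 0.015; −0.35 without the library that stood apart, adjusted p = 0.040). At 18 h Socs3 did not pass, with 122 to 157 CPM in BMDM-WT and 130 to 196 CPM in BMDM-Nur77-KO, when Il6 was higher in the knockout. Socs1, which acts on JAK kinases, was higher in the knockout at 18 h (0.95 ± 0.31, adjusted p = 0.027). Its libraries overlapped, at 15.8 to 25.3 CPM in BMDM-WT and 16.5 to 62.6 CPM in BMDM-Nur77-KO.

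Of the 3 genes for shedding of the receptor, Rhbdf2, a partner of the protease ADAM17, was lower in the knockout at 5 h (−0.60 ± 0.20, adjusted p = 0.028), which did not pass without the library that stood apart (−0.36, adjusted p = 0.10); Adam10 and Adam17 passed at no time. Among 6 targets of STAT3, 1 was higher and 2 were lower in the knockout before LPS (6.29% and 6.38% of all genes). These counts were 1 and 0 at 1 h (3.47% and 3.04%) and 1 and 1 at 5 h (13.5% and 10.6%). At 18 h they were 2 and 0 (11.7% and 9.80%). Without the library that stood apart they were 0 and 2 at 5 h (13.3% of all genes either way). Timp1, an inhibitor of matrix metalloproteinases, was higher in the knockout at every time, with log2 fold changes of 1.05 ± 0.19, 1.14 ± 0.17, 0.37 ± 0.13 and 0.79 ± 0.14 (adjusted p = 0.00028, 2.4e-05, 0.043 and 9.7e-05). Without the library that stood apart the value of Timp1 at 5 h was 0.33 (adjusted p = 0.11). The other target higher at 18 h was Pim1 (0.56 ± 0.07, adjusted p = 9.2e-08), and Bcl3 was lower before LPS (−0.54 ± 0.16, adjusted p = 0.019). Il4ra, the chain that senses IL-4 and IL-13, was lower in the knockout before LPS (−0.41 ± 0.13, adjusted p = 0.035). It was lower at 5 h too (−0.83 ± 0.13, adjusted p = 2.8e-05), also without the library that stood apart (−0.67, adjusted p = 3.6e-05). Of the 5 genes that control the Il6 gene or its message, Nfkbiz, whose IκBζ protein is needed for full Il6 transcription, was higher in the knockout at 18 h, at 64.2 to 69.8 against 41.8 to 45.6 CPM (0.66 ± 0.08, adjusted p = 5.9e-07). Arid5a, whose protein stabilises Il6 message, was higher at 18 h as well (0.50 ± 0.11, adjusted p = 0.00095); it is named after its value was seen, as the other gene of the list that passed then. Zc3h12a, which encodes the RNase Regnase-1 that degrades Il6 message, was lower in the knockout at 5 h (−0.67 ± 0.19, adjusted p = 0.011; −0.44 without the library that stood apart, adjusted p = 0.028). Zfp36, which encodes the decay factor tristetraprolin, was lower before LPS (−0.66 ± 0.08, adjusted p = 6.2e-07) and at 5 h (−0.39 ± 0.08, adjusted p = 0.00066; −0.35 without the library that stood apart, adjusted p = 0.0032). At 18 h neither Zc3h12a (0.06 ± 0.19, adjusted p = 0.86) nor Zfp36 (0.03 ± 0.08, adjusted p = 0.82) passed.

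**Figure D5:**
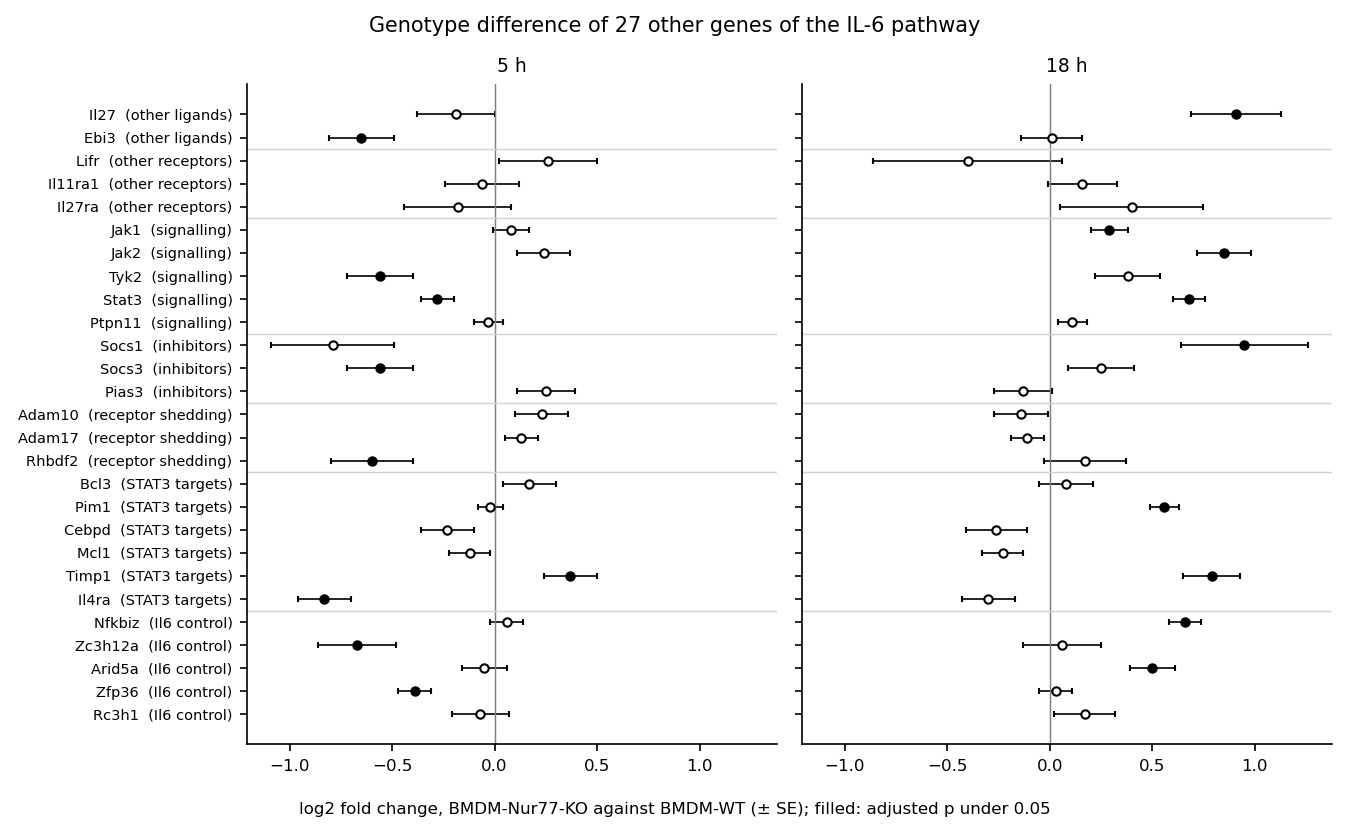
log2 fold change of BMDM-Nur77-KO against BMDM-WT (± SE) for the 27 tested pathway genes, by list, at 5 h and 18 h of LPS; filled points passed at an adjusted p under 0.05. At 5 h 8 filled points lie below 0 and 1 above, and at 18 h all 9 filled points lie above 0.

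As a description of likeness over the 32 libraries, which share time points and genotypes, the genes fell into the same sets as their time courses. Log2 CPM of Lif correlated with that of Clcf1 at a Pearson r of 0.943 and with that of Osm at 0.860, and Il6ra with Il6st at 0.908. Il6 correlated with Il6st at −0.902 and with Il6ra at −0.818. Among 10846 other genes, those most like Il6 were Brd2 (r = 0.985), a reader of acetylated histones, and Ripk2 (0.984), the kinase of the NOD receptors. For Lif they were Tnfsf9 (0.980) and Kdm6b (0.979), for Osm Junb (0.927) and Tgif1 (0.905), and for Clcf1 Junb (0.964) and Dusp1 (0.963). For the receptors they were Rab7b (0.988) and Tbc1d24 (0.985) with Il6ra, Dhrs3 (0.988) and Cxcr4 (0.981) with Il6st, and Rbms1 (0.965) and Fnbp1l (0.964) with Osmr. Some of the genes are also close in the genome: Osm and Lif, both of the early wave, are neighbours on chromosome 11, 16.5 kb apart, and Il6st lies 15.1 kb from Il31ra on chromosome 13. Osmr and Lifr are neighbours on chromosome 15, 216 kb apart; Osmr rose to its highest level at 5 h, when Lifr stood at 2.39 to 3.92 CPM in BMDM-WT, below its level before LPS.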

How the data were processed

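RNA was sequenced from 32 BMDM libraries with a strand-specific poly(A) kit, and per the labels and the study's methods reads were aligned with HISAT2 2.1.0 to mm10 and counted over RefSeq transcripts with HOMER without scaling. The deposited values are estimated counts in steps of 0.5 (28.6% are not whole), whose origin is not given in the sources used here; they were rounded to whole numbers. The submitters' processing notes also name CASAVA 1.8.2. Names were matched for 42268 of 42361 transcripts (RefSeq and GENCODE tables); the 93 unnamed rows held 0.233% to 1.37% of the tags and were left out. For each gene the transcript with the highest mean was kept, which gave 25067 genes.

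Totals ran from 8742362 to 15780926 counts, and floors of 3 counts cover counting error only. Genes with a mean above 1 RPKM (from plain totals) in at least 1 group were fitted with edgeR 4.0.16 (TMM, quasi-likelihood test, 1 mean per group, all 32 libraries; R 4.3.3), and p-values were adjusted by Benjamini-Hochberg over all genes tested; SE is that of the fitted log2 fold change. On simulated counts for BMDM-Nur77-KO against BMDM-WT at 18 h, with 200 of 11279 genes changed, the fit recovered 189 and made 12 false calls. The simulation gave all genes the same dispersion and all changed genes the same size of fold change, up or down. It therefore does not show how often smaller differences, or those of genes with a wider spread, are recovered. Alternatives were DESeq2 1.42.0, DESeq2 size factors, other filters, only the libraries compared, the replicate number as a block, each library left out, every transcript, a fold limit, plain library totals and the promoter window.

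Members and lists were chosen with earlier results of these data known. Named pathway genes are at most 3 per list with the largest log2 fold change between the genotypes among those past the threshold and above 0.58 at any time; genes outside this rule are named where a count or comparison turns on them. Results of 2 further listed genes are not reported here. The likeness rule takes 2 genes for each member, from genes with a mean of at least 1 CPM. Of the fixed marker lists, macrophage, fibroblast and endothelial are given with the results; neutrophil markers summed to 9.29 to 30.2 CPM without Ly6g or Elane, B cell markers to at most 4.69 CPM, and mast cell markers to at most 5.32 CPM without Cpa3 or Ms4a2.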

Additional observations from a re-analysis of the deposited data

Results flagged for a closer look

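Among 46 sets of 4 libraries of a gene and group, 5 held a library that lay far from the other 3; chance alone gives such a library in about 1 of 20 sets. Il6 in BMDM-Nur77-KO at 5 h had its highest library at 499.1 CPM, and Osmr in the same group had its highest at 3.272 CPM; both are the library that stands apart from its group. Il6ra had its highest BMDM-WT library at 1 h at 43.63 CPM and its lowest at 5 h at 5.875 CPM, and Lif had its lowest BMDM-Nur77-KO library at 18 h at 0.0 CPM, where the others had 3 or 4 counts.

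The change from 5 to 18 h differed between the genotypes for Il6, by 3.05 on the log2 scale, and for Osm, by 1.21.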

How the results depend on the processing

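The higher Il6 and the lower Il6ra of BMDM-Nur77-KO at 18 h kept their direction and call under every alternative run except a fold limit, which Il6ra does not reach. With a fold limit, 0 genes passed between the genotypes at 0 h, 1 at 18 h and 2 in the response of BMDM-WT at 18 h. Between the genotypes 0 passed at 0 h with no filter; at 1 h 4 passed with only the libraries compared, 1 with the replicate block and 1 with every transcript; at 5 h 2 passed with DESeq2 and 0 with only the libraries compared. With only the libraries compared 1 gene passed for the difference of the responses at 18 h and 1 for that of the change from 5 to 18 h, which also left 1 with the replicate block. Leaving out single libraries gave 0 to 1 of 6 at 0 h, 0 to 1 at 1 h, 0 to 2 at 5 h, 2 to 3 at 18 h, and 1 to 2 for the difference of the change from 5 to 18 h. For the responses to LPS it gave 4 to 5 in BMDM-Nur77-KO at 1 h, 5 to 6 in BMDM-Nur77-KO at 5 h and 3 to 4 in BMDM-WT at 18 h, and for the change from 5 to 18 h it gave 5 to 6 in BMDM-WT and 4 to 5 in BMDM-Nur77-KO. For most of these alternatives the share of all genes that passed is not given here. The counts therefore show how far the calls of the 6 genes moved, not how they stand against all genes. The causes were not tested.

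Values near 0 changed sign, and none of them passed. Il6st between the genotypes at 0 h was 0.00 with DESeq2 size factors and with only the libraries compared, and −0.11 to 0.02 with single libraries left out. In the same way Clcf1 ran from −0.50 to 0.55 at 0 h and from −0.20 to 0.29 at 5 h, Lif from −0.01 to 0.73 at 18 h, and Osm in the response of BMDM-WT at 18 h from −0.05 to 0.21. For the difference of responses Clcf1 ran from −0.13 to 0.92 at 1 h and −0.49 to 0.56 at 5 h, Il6st from −0.12 to 0.02 at 5 h and Osm from −0.44 to 0.18 at 5 h. Osmr between the genotypes at 5 h was −0.12 without library 1 of BMDM-Nur77-KO, an alternative chosen after seeing the data. Plain library totals moved 21 of 56 levels by more than 1 SD.

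No pairing of the libraries by replicate number was detected. No pair of groups had every same-number correlation of deviations over 0.1, and 25 of 112 comparisons were highest for the own number. Single same-number correlations reached 0.46, and this check cannot tell whether libraries share an animal. With the number as a block, Osm at 1 h was −0.73 (adjusted p = 0.081) and Osm in the difference of the change from 5 to 18 h 1.20 (adjusted p = 0.070). Genotype differences that rest on few counts, as for Lif and Clcf1 outside 1 h and for Osmr, did not pass at this depth, while the rises of Lif, Clcf1 and Osmr by 5 h did.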
